A study of Mus musculus with 6 samples.

Results

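Doxycycline-driven induction of Wt1 for 24 h was examined in mouse embryonic stem cells that lack Wt1, by comparing the mature microRNA (miRNA) counts of the library labelled Wt1 KO with 24 h of doxycycline (dox) with those of the untreated Wt1 KO library. The miRNAs described are the 335 of 1899 mature entries whose mean count over these 2 libraries reaches 50. All cells are 129/Ola embryonic stem cells, kept on gelatin in medium with LIF (leukemia inhibitory factor) and serum. The untreated Wt1 KO library received no agent, and the dox library received dox at 1 µg/ml for 24 h. Wt1 KO cells after 12 h of dox and untreated wild-type (WT) cells are given beside them for reference, and the WT and Wt1 KO libraries with retinoic acid at 1 µM (read from "µm" in the labels) enter only the scaling. Each group is 1 library, so no difference here has a replicate check and every ratio compares libraries, not conditions. The labels do not name the promoter of the inducible gene, the Wt1 isoform it encodes or the clone that carries it. A library of dox-treated cells without the inducible gene is not analysed here, so the effect of Wt1, of dox itself and of a difference between lines cannot be told apart. Small RNA counts do not measure the Wt1 mRNA.

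Wt1 is a zinc finger transcription factor best known from the kidney, the gonads and Wilms tumour, and it can activate or repress its target genes. A miRNA is cut from a hairpin that yields a 5p and a 3p arm, of which usually a single arm is kept in the silencing complex. Bases 2 to 8 of the kept arm, the seed, pair with target messenger RNAs, so miRNAs with the same seed can bind the same sites. In mouse embryonic stem cells the miR-290 cluster is abundant and promotes the rapid cell cycle, while the miR-302 cluster, with the same seed in several members, is characteristic of the later, primed state of pluripotency.

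The sequences below are those the comparison turns on, printed 5′ to 3′ from RefSeq (build GRCm38.p6) with the seed in capitals. RefSeq entries with the deposited sequence were found for 273 of the 335 miRNAs, and for 27 of the 33 that differed by the size rule given below. The first 4 share a seed and come from the miR-302 and miR-290 clusters.
miR-302b-3p: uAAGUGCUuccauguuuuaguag
miR-302d-3p: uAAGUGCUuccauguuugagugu
miR-295-3p: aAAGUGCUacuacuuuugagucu
miR-294-3p: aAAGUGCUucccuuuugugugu
The next 3 are the abundant arm of miR-92a and the minor arms of its hairpins, whose ratios had opposite signs.
miR-92a-3p: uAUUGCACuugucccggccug
miR-92a-1-5p: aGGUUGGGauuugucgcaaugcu
miR-92a-2-5p: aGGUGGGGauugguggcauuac
The next 3 share the miR-181 seed but not their ratios.
miR-181a-5p: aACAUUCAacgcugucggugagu
miR-181c-5p: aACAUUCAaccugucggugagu
miR-181d-5p: aACAUUCAuuguugucggugggu
The last 6 are miR-211-5p, the highest ratio outside the clusters above, and the miRNAs that were lower by most or at the highest level, with the other arm of miR-409.
miR-211-5p: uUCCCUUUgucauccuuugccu
miR-409-5p: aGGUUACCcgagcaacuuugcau
miR-409-3p: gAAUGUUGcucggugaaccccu
miR-501-3p: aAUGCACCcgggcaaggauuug
miR-99b-5p: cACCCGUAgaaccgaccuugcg
miR-5126: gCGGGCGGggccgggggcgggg

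Depth differed between the libraries compared, with 1768862 uniquely matched reads in untreated Wt1 KO and 3629658 after 24 h of dox, a 2.05-fold difference, beside 1227428 after 12 h and 1063945 in WT. The 335 miRNAs held 99.8% of the reads of each. Their median count was 204 in untreated Wt1 KO and 505 at 24 h, and none lacked reads in either library. Levels are given as normalised CPM, that is read counts relative to the library total (CPM) with TMM scaling, which sets the libraries level by a trimmed mean of their log ratios. Ratios are log2 ratios of 24 h of dox over untreated Wt1 KO, with a 95% interval in brackets. The interval covers the counting error of reads and nothing else. PCR copies are not independent molecules, so it can understate the counting error of molecules. Under the size rule, a miRNA is called higher when its log2 ratio reaches 1 and lower when it reaches -1, provided that 0 lies outside the interval. The miRNAs next to the minimum count were miR-135b-5p just outside, with 16 and 83 reads, and miR-342-5p just inside, with 27 and 74 reads in untreated Wt1 KO and at 24 h.

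Most miRNAs did not reach the size rule after 24 h of dox. By the size rule 20 of the 335 miRNAs were higher (5.97%) and 13 lower (3.88%), which is 9.85% in all, and the remaining 302 were neither. The minimum is a mean of raw counts, and 44 of the 335 had fewer than 50 reads in untreated Wt1 KO but none at 24 h. These 44 passed only through the deeper 24 h library, which tilts the balance towards higher calls. They include the higher miRNAs miR-302b-3p (28 reads untreated), miR-302a-3p (48), let-7f-5p (45), miR-146b-5p (25) and miR-455-3p (21). Also among them are miR-92a-2-5p (19), miR-376b-5p (19) and miR-26b-3p (18), but no lower miRNA. The 5.97% higher, used below as the share over all miRNAs, thus includes calls that this route favours. The interquartile range of the log2 ratios ran from -0.38 to 0.36 around a median of -0.01. Counting error was smaller than many of these differences: 192 miRNAs had an interval that excluded 0 without reaching the size rule. For comparison, 12 h of dox against the same untreated library gave 15 higher (4.48%) and 31 lower (9.25%) of the same 335, or 13.7% in all. These contrasts share the untreated Wt1 KO library.

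The called miRNAs held a small share of the reads. The median count of the higher miRNAs, as the mean of both libraries, was 349 and that of the lower ones 128.5, against 367 over all 335. The 20 higher miRNAs made up 0.198% of the untreated Wt1 KO library and 0.615% of the 24 h library, and the 13 lower ones 1.19% and 0.563%. Only 3 of the 20 had a log2 ratio of at least 2, and 3 of the 13 a ratio of at most -2. Scaling moved the balance of the calls. As CPM of the total, all ratios shifted by 0.23 and the calls were 32 higher and 10 lower, and with the stem cell clusters (miR-290 and miR-302) removed from the total they shifted by 0.31 and were 40 and 6.

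**Figure D1:**
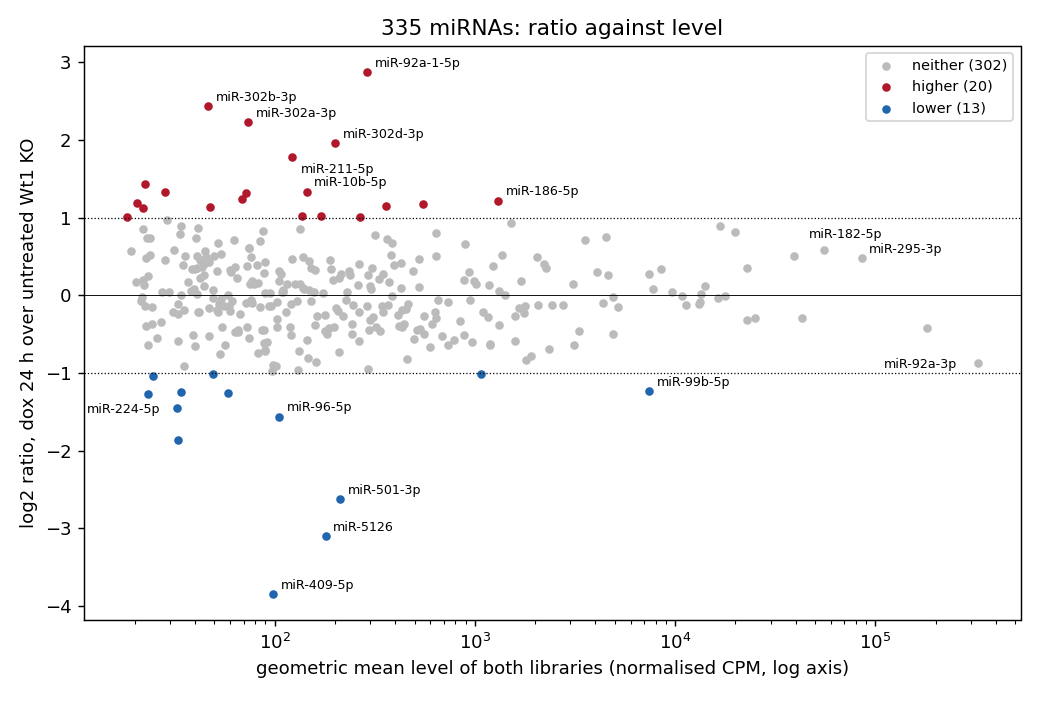
Log2 ratio (24 h of dox over untreated Wt1 KO) of each of the 335 miRNAs against the geometric mean of its normalised CPM in both libraries (log axis), with dotted lines at 1 and -1. The 20 higher miRNAs (red) and 13 lower miRNAs (blue) lie below the most abundant miRNAs, and miR-92a-3p, the most abundant, sits at -0.87.

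The miR-302 cluster was the list with the highest ratios. All 3 measured members were higher, against 5.97% of all 335 miRNAs, and the list median was 2.23 against -0.01 over all. Of these, miR-302a-3p and miR-302b-3p had 48 and 28 reads in untreated Wt1 KO. They reached the minimum mean count only through the 24 h library, a route that favours a higher call. The cluster lies on chromosome 3, within an intron of Larp7 on the opposite strand (miR-302b-3p at chr3:127545275-127545297 and miR-302d-3p at chr3:127545665-127545687, + strand). Its summed level was 161 normalised CPM in untreated Wt1 KO. It was 282 at 12 h, 696 at 24 h and 791 in untreated WT.

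miR-302d-3p, the most abundant member, had 144 reads without dox, 156 at 12 h and 1352 at 24 h, or 102, 138 and 397 normalised CPM. Its log2 ratio at 24 h was 1.96 [1.71 to 2.22], and at 12 h against the same library it was 0.43. The 24 h library is thus the high one of the 3 Wt1 KO libraries, and its level is close to the 455 normalised CPM of untreated WT. miR-302a-3p had 48, 73 and 548 reads in the same order and a ratio of 2.23 [1.82 to 2.70]. miR-302b-3p, with 28, 64 and 372 reads, had a ratio of 2.44 [1.91 to 3.07]. Against WT, the 24 h levels of miR-302a-3p, miR-302b-3p and miR-302d-3p lay at log2 ratios of -0.30, 0.16 and -0.20.

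The other 7 entries of the cluster were below the minimum count. miR-302a-5p had 0 reads in untreated Wt1 KO and 19 at 24 h, which is 2.63-fold higher when 3 reads are set for the library without any. The lower limit of its interval was a log2 ratio of 0.95. miR-302c-3p had 1 and 23 reads and miR-302d-5p 2 and 35, with ratios of 2.70 [0.63 to 8.62] and 2.56 [0.90 to 5.96]. miR-302c-5p had 4 and 17 reads, miR-367-3p 0 and 1, and the remaining entries none. miR-302b-3p and miR-302d-3p differ at U18G, A22G and G23U (positions from the 5′ end, miR-302b-3p first). A read that ends before base 18 could match both, and only unique matches are counted here. Members of a cluster can come from a shared transcript, so their number is not repeated evidence.

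The miR-290 cluster, which shares the AAGUGCU seed with miR-302 in miR-291a-3p, miR-294-3p and miR-295-3p, stayed within the size rule in all but 1 member. Its share was 16.8% of the untreated Wt1 KO library and 21.1% of the 24 h library, so the defining miRNAs of embryonic stem cells were present in both libraries. Of its 13 measured members 1 was higher and none lower, against 5.97% and 3.88% of all 335 miRNAs. Counts this near the share over all miRNAs say little about the cluster. The median of -0.13 turns positive as CPM of the total (0.11). miR-295-3p, the most abundant, had 102465 reads untreated, 146295 at 12 h and 343368 at 24 h, a ratio of 0.47 [0.46 to 0.49]. miR-294-3p was at 0.35 [0.33 to 0.37], and the arms of miR-292a were at -0.29 [-0.30 to -0.27] (5p) and -0.30 [-0.31 to -0.28] (3p). The member called higher was miR-290a-3p, a minor arm, at 119 normalised CPM untreated, 479 at 12 h and 242 at 24 h. Its ratio of 1.02 [0.78 to 1.27] is just under the size rule (0.996) when miR-92a-3p is left out of the total, and its other arm, miR-290a-5p, was at -0.33.

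Summed over the 6 measured miRNAs with the AAGUGCU seed, the level was 95935 normalised CPM in untreated Wt1 KO and 130071 at 24 h, a log2 ratio of 0.44 [0.43 to 0.45]. The miR-302 members gave at most 397 normalised CPM each of this sum. Most of the sum came from miR-295-3p and miR-294-3p.

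**Figure D2:**
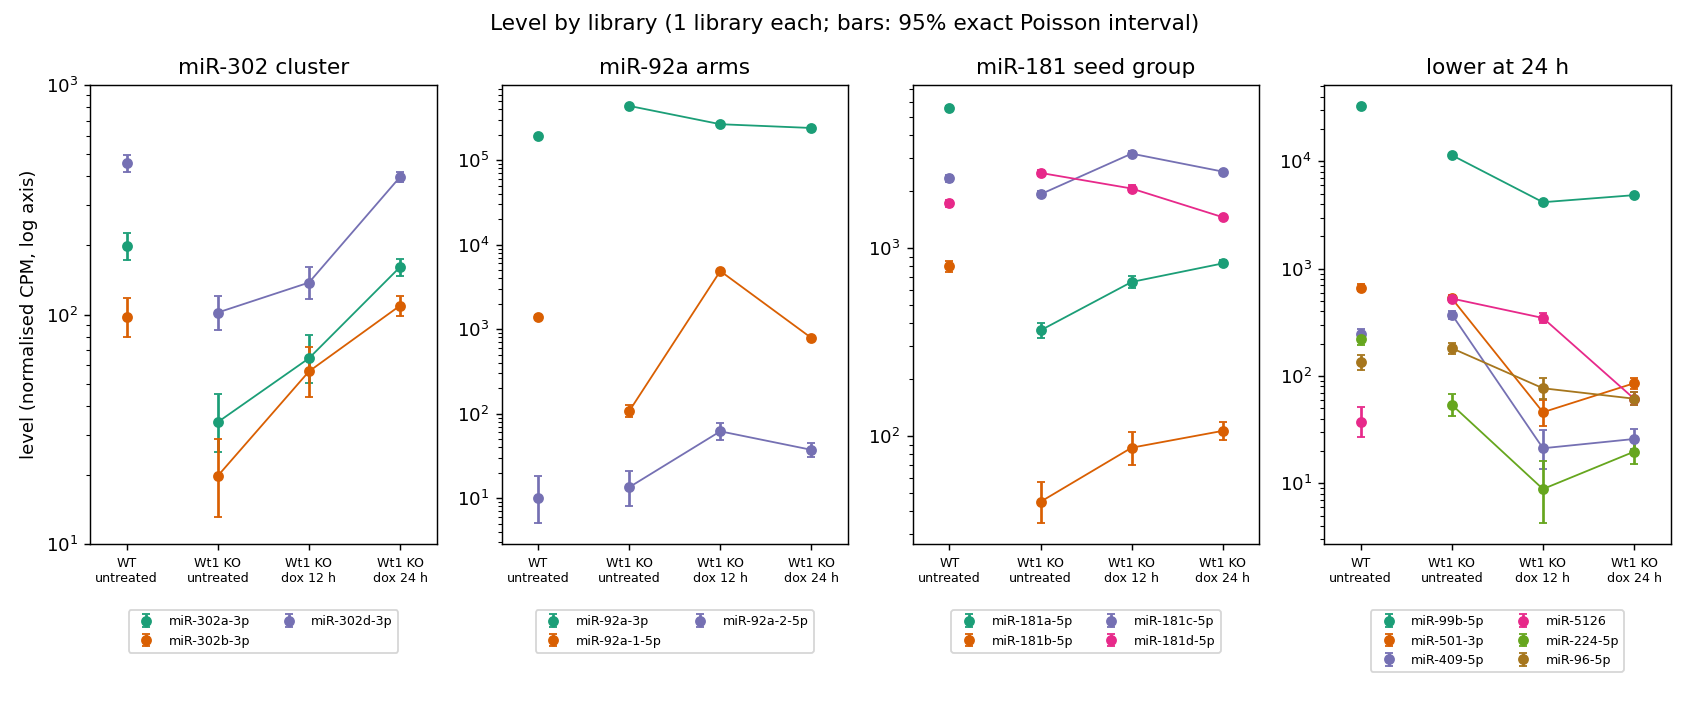
Level in normalised CPM (log axis) of selected miRNAs in WT and in Wt1 KO without dox and at 12 h and 24 h, with 1 library per point and bars for the 95% exact Poisson interval of the count. miR-302d-3p goes from 102 to 397 between the untreated and the 24 h Wt1 KO libraries, miR-92a-1-5p is highest at 12 h (4884), and miR-409-5p and miR-501-3p are low in both dox libraries.

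The miR-17 cluster and its paralogs, which promote proliferation, showed opposite directions for the arms of miR-92a. Of 22 measured members 2 were higher and none lower, against 5.97% and 3.88% of all 335 miRNAs. The list median of -0.18 turns to 0.06 as CPM of the total. The 2 higher members were the minor 5p arms of the miR-92a hairpins. miR-92a-1-5p lies in an exon of the host transcript Mir17hg (chr14:115044437-115044459, + strand). It had 151 reads in untreated Wt1 KO, 5528 at 12 h and 2679 at 24 h, that is 107, 4884 and 787 normalised CPM, against 1408 in WT. Its ratio at 24 h, 2.87 [2.64 to 3.13], was the highest of the 335 miRNAs. The 12 h library is the high one, with a ratio over untreated Wt1 KO of 5.51, and the 24 h level lies between it and the untreated level.

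miR-92a-2-5p, from the X-linked paralog cluster (chrX:52741892-52741913, - strand), had 19, 70 and 127 reads in the same order. It reached the minimum mean count only through the 24 h library, a route that favours a higher call. At 13.5, 61.8 and 37.3 normalised CPM it was likewise highest at 12 h, with 10.1 in WT, and its ratio at 24 h was 1.44 [0.77 to 2.25]. The abundant arm that both hairpins share, miR-92a-3p, made up 35.1% of the untreated Wt1 KO library and 22.6% of the 24 h library. Its levels were 440120, 267192 and 241052 normalised CPM in untreated, 12 h and 24 h Wt1 KO libraries and 196157 in WT, and its ratio of -0.87 [-0.87 to -0.86] did not reach the size rule. The 24 h library is thus nearer to WT than the untreated Wt1 KO library is. Other members stayed closer to 0, among them miR-17-5p at -0.58, miR-93-5p at -0.03 and miR-25-3p at 0.05, while miR-18a-5p was at -0.89 [-1.17 to -0.61].

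Arms of other hairpins also parted. In 77 pairs of measured arms the ratios had the same sign in 45, and the median difference between arms was 0.42 in size. No pair had both arms called, 9 had 1 arm called and none had opposite calls. Since 9.85% of all 335 miRNAs were called, pairs with 2 called arms would be rare in any case. These counts of calls therefore say little about whether arms differ. The arms differed by at least 1 in 13 pairs and by at least 2 in 3 pairs, the miR-409 pair and the pair made by each miR-92a 5p arm with miR-92a-3p. The 9 called arms were, besides miR-92a-1-5p and miR-92a-2-5p, miR-409-5p, miR-99b-5p, miR-770-5p, miR-27b-5p, miR-376b-5p, miR-26b-3p and miR-290a-3p. Of these, miR-92a-2-5p, miR-376b-5p and miR-26b-3p reached the minimum mean count only through the 24 h library.

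**Figure D3:**
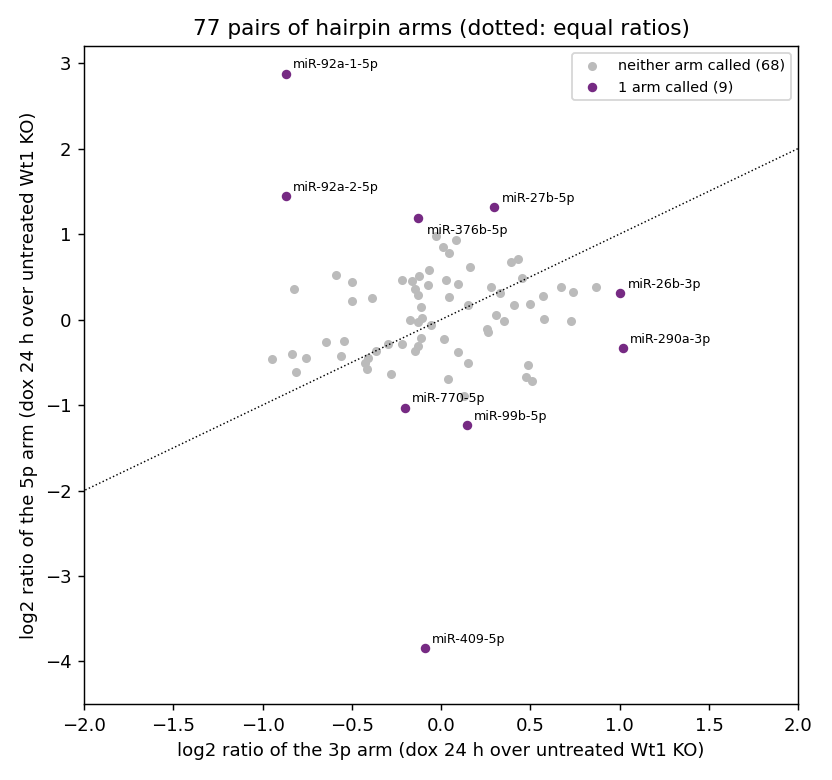
Log2 ratio (24 h of dox over untreated Wt1 KO) of the 5p arm against that of the 3p arm for 77 pairs of arms, with a dotted line where both are equal. In the 9 pairs with a called arm (purple) the other arm stays within the size rule, and miR-409-5p at -3.85 and miR-92a-1-5p at 2.87 lie farthest from the line.

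miR-409-5p had the lowest ratio of all. It belongs to the imprinted Dlk1-Dio3 locus, a large maternally expressed miRNA region, where it lies in an intron of the noncoding gene Mirg (chr12:109743172-109743194, + strand). It had 528 reads in untreated Wt1 KO, 24 at 12 h and 88 at 24 h, that is 374, 21.2 and 25.9 normalised CPM, with 244 in WT. Both dox libraries are far below both untreated libraries, and the ratio at 24 h was -3.85 [-4.20 to -3.53]. miR-409-3p, the main arm of the same hairpin, had 19438, 12160 and 43973 reads and a ratio of -0.09 [-0.12 to -0.07].

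The rest of the Dlk1-Dio3 locus mostly stayed within the size rule, as did most of all 335 miRNAs. Of its 65 measured members 1 was higher and 2 lower, against 5.97% and 3.88% of all 335 miRNAs. Its share of the reads was 26.6% in both libraries. Its median of -0.08 turns to 0.15 as CPM of the total. miR-127-3p, the most abundant member, was at -0.43 [-0.43 to -0.42] and miR-541-5p at 0.51 [0.49 to 0.52]. The higher member was miR-376b-5p with 19 and 107 reads, at 1.19 [0.51 to 2.01]. It too reached the minimum mean count only through the 24 h library, which favours a higher call. The second lower member, miR-770-5p, from an exon of Meg3, had 50 and 59 reads and a ratio of -1.03 [-1.60 to -0.46], which becomes -0.80 as CPM of the total and is then no longer called.

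miR-501-3p, from an X-linked miRNA cluster in an intron of Clcn5 (chrX:7241270-7241291, - strand), had levels in a similar order to miR-409-5p. It had 746 reads in untreated Wt1 KO, 52 at 12 h and 291 at 24 h, or 529, 45.9 and 85.5 normalised CPM against 665 in WT, and a ratio of -2.63 [-2.83 to -2.43]. Both dox libraries are again low and both untreated libraries high. The other measured members of the cluster were miR-532-5p at 0.41, miR-532-3p at 0.09 and miR-188-5p at -0.92 [-1.39 to -0.43], none of which was called.

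miR-5126 had the second lowest ratio, -3.10 [-3.33 to -2.88], from 744 reads untreated, 393 at 12 h and 209 at 24 h. At 527, 347 and 61.4 normalised CPM the 24 h library is the low one, and WT had 37.6. All 22 of its bases are G or C. RefSeq places it at chr1:84695890-84695911 (+ strand), where GENCODE M21 has an exon of Dner on the opposite strand. Of the other lower miRNAs, miR-690 was at -1.86 [-2.36 to -1.37], miR-3470b at -1.25 [-1.73 to -0.77], miR-346-5p, in an intron of Grid1, at -1.27 [-1.86 to -0.68] and miR-5122 at -1.02 [-1.41 to -0.62]. miR-5122 is no longer called as CPM of the total (-0.78), and with the stem cell clusters removed from the total neither are miR-346-5p (-0.96) and miR-3470b (-0.94).

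miR-99b-5p was the most abundant miRNA called lower. Its family is known to repress the growth regulator mTOR, and it is encoded in an intron of Spaca6 (chr17:17830194-17830215, + strand), near let-7e and miR-125a in the same gene. It had 16127 reads untreated, 4715 at 12 h and 16491 at 24 h, or 11429, 4166 and 4847 normalised CPM, and its ratio was -1.24 [-1.27 to -1.21]. Both dox libraries lie below untreated Wt1 KO, which itself lies below the 32644 normalised CPM of WT. The ratio becomes -0.93 with the stem cell clusters removed from the total, which ends the call. Its hairpin's other arm, miR-99b-3p, was at 0.14 [-0.11 to 0.41], and the neighbours miR-125a-5p and let-7e-5p were at 0.27 [0.24 to 0.31] and 0.28. miR-125b-5p was at 0.19, so the list of miR-99/100 and miR-125 had 1 of 5 measured entries lower and none higher. Among all 335 miRNAs 3.88% were lower and 5.97% higher.

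miR-96-5p, needed in sensory hair cells, had 256 reads untreated, 87 at 12 h and 209 at 24 h and a ratio of -1.56 [-1.83 to -1.29]. Its cluster mates did not share this: miR-182-5p, one of the most abundant miRNAs, was at 0.58 [0.56 to 0.59] and miR-183-5p at -0.01. miR-224-5p, in an intron of Gabre, had 76, 10 and 67 reads and a ratio of -1.45 [-1.95 to -0.96]. Its level in WT, 223 normalised CPM, was above all 3 Wt1 KO libraries, which had 53.9, 8.83 and 19.7.

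The Sfmbt2 intron cluster, a large rodent cluster of related miRNAs, had 2 of 29 measured members lower and none higher, with a median of -0.41. Among all 335 miRNAs 3.88% were lower and 5.97% higher, so these counts of calls say little about the cluster. The lower entries were miR-669a-3p/miR-669o-3p at -1.01 [-1.09 to -0.93], with 2149 and 2572 reads, and the joint entry of miR-297a-3p, miR-297b-3p and miR-297c-3p at -1.26 [-1.62 to -0.89]. The first is no longer called as CPM of the total (-0.78), and the second is no longer called without the stem cell clusters in the total (-0.95). Arms again differed, with miR-467d-5p at 0.52 and miR-467d-3p at -0.59. Below the minimum count, miR-466d-5p was higher by the size rule (1.58). Lower there were miR-669l-3p (-3.59), miR-669a-3-3p (-1.43), miR-467e-3p (-1.17) and miR-466o-3p (-1.15). Near-identical members of this cluster can share or lose reads to the multi-matches.

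Among the higher miRNAs outside the clusters, miR-211-5p had the highest ratio. It is encoded in an intron of Trpm1, a gene of pigment cells and retina (chr7:64205831-64205852, + strand), and has the seed of miR-204. It had 93 reads untreated, 185 at 12 h and 775 at 24 h, or 65.9, 163 and 228 normalised CPM, and a ratio of 1.78 [1.48 to 2.12]. Both dox libraries are above the untreated one, and all 3 are above the 13.8 normalised CPM of WT, so the 24 h library is the farthest from WT. In the list of kidney-enriched miRNAs, into which miR-211 was put as the relative of miR-204, miR-192-5p was at 0.43 and miR-194-5p at -0.58. miR-211-5p was the 1 of 3 called, beside 9.85% of all 335 miRNAs.

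miR-181a-5p and miR-181b-5p, known from blood cell differentiation, were higher while their seed mates were not. miR-181a-5p had 514 reads untreated, 746 at 12 h and 2814 at 24 h and a ratio of 1.18 [1.05 to 1.32]. Its levels of 364, 659 and 827 normalised CPM all stayed far below the 5558 of WT, at a log2 ratio of -2.75 for 24 h over WT. miR-181b-5p, with 63, 98 and 362 reads, was at 1.24 [0.86 to 1.66]. By contrast miR-181c-5p was at 0.40 [0.34 to 0.46] and miR-181d-5p at -0.78 [-0.84 to -0.72]. Since miR-181c-5p and miR-181d-5p were more abundant, the sum over the seed was 4844 normalised CPM untreated and 4938 at 24 h, a ratio of 0.03 [-0.01 to 0.07].

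miR-10b-5p, encoded in introns of Hoxd3 and Hoxd4, had 128 reads untreated, 132 at 12 h and 782 at 24 h, with levels of 90.7, 117 and 230 normalised CPM. Its ratio was 1.34 [1.07 to 1.62] and the 24 h library is the high one. The other measured HOX cluster miRNAs, miR-10a-5p at 0.19 [-0.14 to 0.53] and miR-196a-5p at 0.49, were not called. Below the minimum count, miR-196a-1-3p with 12 and 10 reads (-1.52 [-2.90 to -0.20]) and miR-615-3p with 25 and 25 (-1.27 [-2.13 to -0.41]) were lower by the size rule. miR-186-5p, in an intron of Zranb2, was the most abundant miRNA called higher, with 1214, 1808 and 6815 reads and a ratio of 1.22 [1.13 to 1.31]. Its levels of 860, 1597 and 2003 normalised CPM put both dox libraries above untreated Wt1 KO and above the 1304 of WT.

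The miR-34, let-7 and miR-200 lists had 1 of 2, 1 of 7 and 1 of 5 measured members called higher, beside 5.97% of all 335 miRNAs. miR-34c-5p, a target of p53, had 339 reads untreated and 1816 at 24 h (1.15 [0.98 to 1.32]), while miR-34a-5p with the same seed was at 0.10. Below the minimum count, miR-34c-3p, the other arm, had 5 and 34 reads (1.38 [0.13 to 3.21]) and miR-34b-3p 7 and 91 (2.34 [1.33 to 3.79]). let-7f-5p was at 1.14 [0.69 to 1.64] from 45 and 241 reads, while let-7c-5p, the most abundant let-7, was at -0.64 and the other 5 measured entries lay between these. miR-429-3p, of the miR-200 family that keeps the epithelial state, had 135 and 665 reads and a ratio of 1.03 [0.76 to 1.31], and miR-200b-3p, with the same seed and more reads, was at -0.63.

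The remaining higher miRNAs had few reads or ratios close to the size rule. miR-27b-5p, a minor arm, was at 1.31 [0.94 to 1.73] from 64 and 386 reads, with miR-27b-3p at 0.30. miR-146b-5p, known to dampen inflammatory signalling, was at 1.33 [0.74 to 2.03] from 25 and 154 reads, and miR-455-3p, in an intron of the collagen gene Col27a1, at 1.12 [0.46 to 1.89] from 21 and 112. miR-421-3p (1.01 [0.82 to 1.20]) and miR-26b-3p (1.00 [0.29 to 1.86]) were at the limit. Both fall below it with a prior count of 2 or without miR-92a-3p in the total.

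Lists without a called member included the miR-15/16 family (7 measured, median 0.32), the miR-30 family (9 measured, 0.38) and the miR-130 and miR-301 family (5 measured, 0.26). Since 9.85% of all 335 miRNAs were called, counts of calls in lists this small say little. All 9 miR-30 ratios were positive, from 0.03 (miR-30a-3p, [-0.27 to 0.33]) to 0.87, against 166 of all 335 miRNAs. Several of them are arms of a shared hairpin, so they are not separate results. miR-16-5p was at 0.75 [0.70 to 0.79] and miR-130a-3p at 0.72. The X-linked testis cluster had 4 measured members with a median of -0.19, which turns to 0.04 as CPM of the total. The miRNAs reported to target pluripotency factors had 6 with a median of -0.32, among them miR-134-5p at -0.69 and miR-296-5p at -0.43. No member was called either in the miR-322 cluster (median 0.20), the non-canonical miRNAs (-0.39) or the other imprinted loci (-0.43). The median of the miR-322 cluster turns to -0.03 and that of the other imprinted loci to 0.11 with a minimum count of 10. The miR-23, miR-27 and miR-24 list had 1 of 7 members higher and a median of 0.30, which turns to -0.05 with no minimum, and the miR-26 family had 1 of 3 higher (0.33). In the miR-29 family and the entries reported to overlap rRNA or tRNA, the 1 measured member was at 0.32 and 0.21, the latter being miR-6240.

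**Figure D4:**
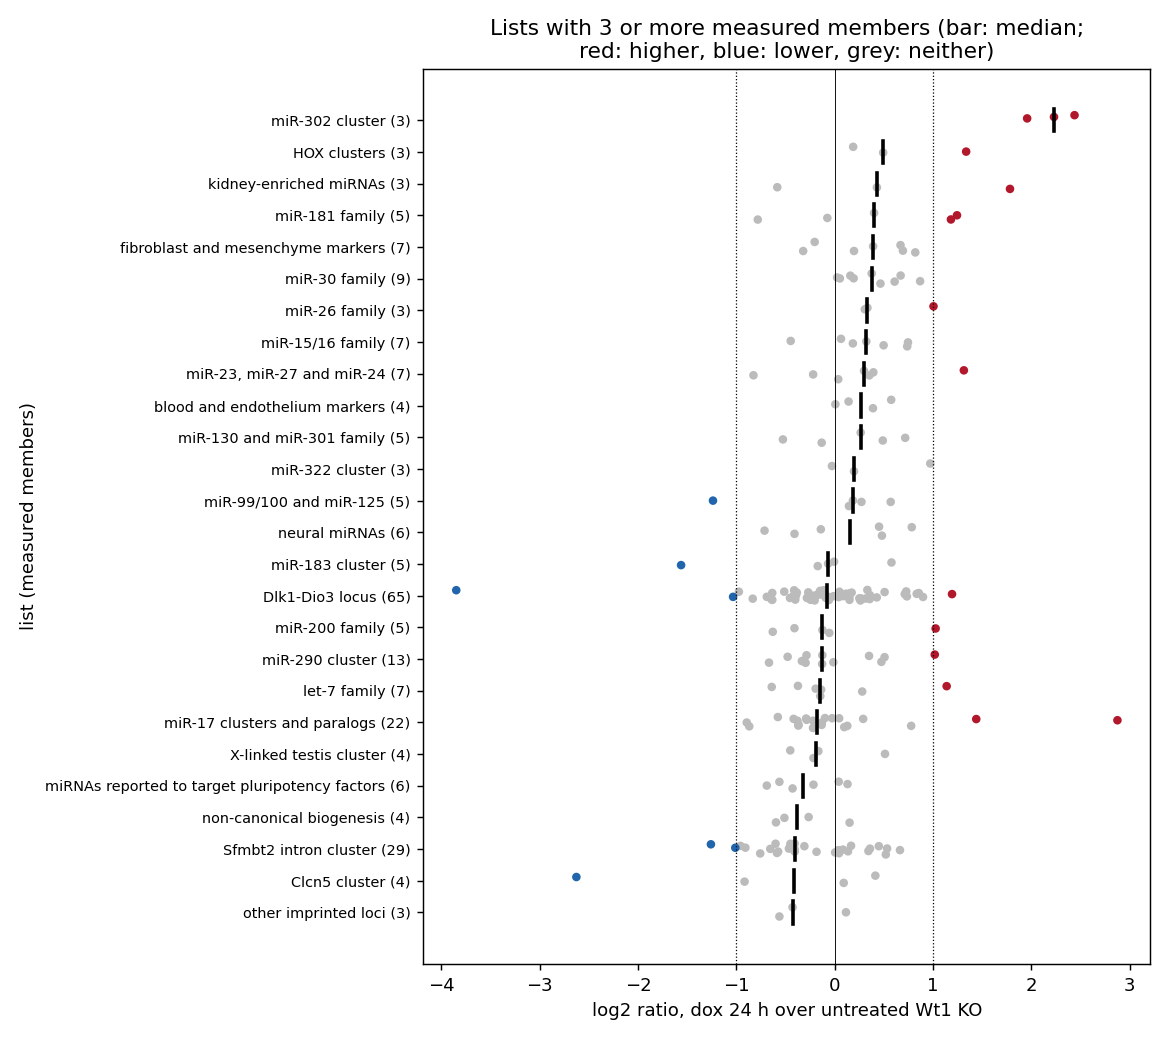
Log2 ratios (24 h of dox over untreated Wt1 KO) of the measured members of each list with 3 or more, ordered by the list median (black bar), with the number of measured members in parentheses. All 3 miR-302 members lie beyond 1 with a median of 2.23, while the medians of the other lists lie between -0.43 and 0.49.

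No measured marker in the neural (6 measured), muscle (2), fibroblast (7), blood (4) or endoderm (1) lists was called. Over all 335 miRNAs 9.85% were called, so with few markers measured the absence of a call says little. Below the minimum count, miR-142a-5p (4 and 71 reads), miR-132-3p (12 and 75) and miR-7a-2-3p (1 and 19) were past the size rule; their part in the other results was not tested. The summed level of the fibroblast and mesenchyme list was 16078 normalised CPM untreated, 27754 at 24 h and 62052 in WT. Most of it came from miR-22-3p, which is not restricted to those cells, at 0.82 [0.80 to 0.84]. Of the 7 measured members of this list 5 had positive ratios, against 166 of all 335 miRNAs. Among them were miR-199a-3p/miR-199b-3p with 94 and 368 reads (0.69 [0.37 to 1.04]) and miR-21a-5p with 430 and 1650 (0.67 [0.52 to 0.83]). The other 2 were negative, miR-31-5p at -0.32 [-0.48 to -0.16] and miR-221-3p at -0.20 [-0.40 to -0.004]. miR-214-3p and miR-214-5p had 0 reads in both libraries. Neural markers summed to 874 and 871 normalised CPM, muscle and mesoderm markers to 469 and 583, blood and endothelium markers to 3096 and 3450, and endoderm markers to 60.2 and 92.0. miR-1a-3p, miR-206-3p, miR-122-5p, miR-451a and miR-223-3p had 0 reads in both libraries, while miR-9-5p had 511 and 1118 and miR-150-5p 4144 and 11019. In bulk cells, a change in the share of a cell type and a change of RNA per cell cannot be told apart.

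Ratios varied among miRNAs with the same seed. The 335 miRNAs had 266 different seeds, and 38 seeds were shared by 2 or more miRNAs, 107 in all. No seed shared by 2 or more miRNAs had all of its members higher or all lower, and none had both higher and lower members. With 5.97% of all 335 miRNAs higher and 3.88% lower, such seeds would be rare in any case, so these counts say little about seed mates. The summed level of a seed passed the size rule for 1 of the 38, the AUACAUA seed of miR-297 and miR-466 entries of the Sfmbt2 cluster, with 411 normalised CPM untreated and 205 at 24 h, at the limit of the rule. The most abundant seed, AUUGCAC of miR-92a-3p, miR-92b-3p, miR-25-3p and miR-363-3p, was at -0.80 [-0.80 to -0.79].

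No miRNA of the highest GC content was called higher. Sorted by the share of G and C bases into 4 groups of similar size, the 81 miRNAs with 58.3% or more had none higher and 5 lower, and a median ratio of -0.14. The 84 with 42.9% to 48% had 8 higher and 3 lower and a median of 0.17. The 85 below these had 8 higher and 3 lower (median 0.08), and the 85 with 50% to 57.1% had 4 higher and 2 lower (-0.03). Over all 335, 5.97% were higher and 3.88% lower. The 5 lower miRNAs of the GC-rich group were miR-5126, miR-5122, miR-770-5p, miR-346-5p and miR-99b-5p. At 12 h of dox, against the same untreated library, the median was -0.25 in the GC-rich group and 0.03 in the group from 42.9% to 48%. The spread of the calls over the groups and the part of base composition in the ratios were not tested.

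**Figure D5:**
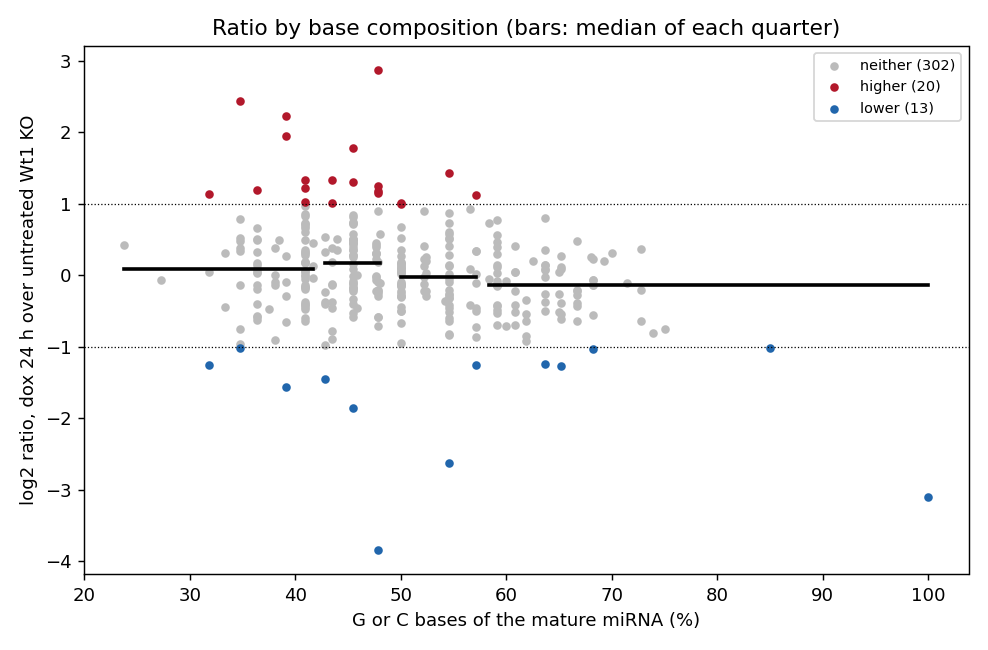
Log2 ratio (24 h of dox over untreated Wt1 KO) of each miRNA against the percentage of G or C bases in its mature sequence, with black bars for the median of each of 4 GC groups. No miRNA of the group with 58.3% or more is called higher (red), and miR-5126, at 100% and -3.10, lies at the far right.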

How the data were processed

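Small RNA of 6 libraries was sequenced after adapter ligation, reverse transcription and PCR, with miRNA-sized and somewhat longer inserts cut from a gel, per the labels' protocols. The deposited tables hold read counts per mature miRNA, as unique matches or multi-matches per the file headers. Aligner, allowed mismatches, miRBase release and genome build: not given in the sources used here. Positions are therefore RefSeq's (GRCm38.p6) and host genes GENCODE M21's. Unique-match counts were scaled by TMM (edgeR 4.0.16, R 4.3.3) over 351 entries whose mean over 6 libraries reaches 50, with factors of 0.798 (untreated Wt1 KO) and 0.937 (24 h of dox). Log2 ratios used a prior count of 0.5 and exact conditional binomial (Clopper-Pearson, SciPy 1.17.1) intervals. With 1 library per group there is no test, p-value or standard error. The calculation was tested on simulated counts. In untreated Wt1 KO, 3 counts equal 2.13 normalised CPM, and 0.882 at 24 h. The 31 lists, the named miRNAs (up to 15 higher and 15 lower by interval bound, 5 per list by count, the 10 most abundant, any without reads in 1 library) and the alternatives were chosen with earlier results of these data known. Some further miRNAs, such as cluster mates and other arms, were named after their values were seen.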

Additional observations from a re-analysis of the deposited data

Results flagged for a closer look

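Among the entries below the minimum mean count of 50, which the comparison does not use, the interval of 2 lay wholly above a log2 ratio of 1 over the untreated Wt1 KO library. miR-34b-3p, of the p53-responsive miR-34 family, had 7 reads in untreated Wt1 KO, 13 after 12 h and 91 after 24 h of dox, a log2 ratio of 2.34 [1.33 to 3.79]. miR-142a-5p, an arm of a miRNA of blood cells, had 4, 33 and 71 reads in the same order and a ratio of 2.72 [1.46 to 4.79], while its other arm miR-142a-3p had 6, 1 and 6 reads. In all, 19 entries below the minimum were higher and 25 lower by the size rule, and none has a replicate check.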

How the results depend on the processing

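Of 11 alternatives, 17 of the 20 higher and 6 of the 13 lower miRNAs kept their call in each in which they were measured, and no named call changed sign. The number higher was 32 as CPM of the total, 40 as CPM with the stem cell clusters (miR-290, miR-302) removed, 37 with a minimum mean count of 10 and 39 with none. The number lower was 6 with those clusters removed, 26 and 38 with a minimum of 10 and none, and 6 with a minimum of 200, where fewer miRNAs are measured. All 20 higher miRNAs stayed higher, and 10 and 6 of the 13 lower ones stayed lower, in the first 2 scalings. Adding multi-match counts, an alternative chosen after seeing the data, gave 20 and 14. Medians of 12 of 26 lists changed sign in some setting, among them the Clcn5 cluster (-0.41, and 0.09 with a minimum of 200) and the neural list (0.16 and -0.14). Minor arms and entries near 50 reads have the widest intervals. No paired analysis was possible because each group has 1 library.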
